A study of Mus musculus with 12 samples.

Results

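The NRF2 antioxidant response was examined in the colonic crypts of mice through 10 genes, chosen by name: Nfe2l2, Keap1, Nqo1, Hmox1, Gclc, Gclm, Txnrd1, Srxn1, Slc7a11 and G6pdx. They are 10 of the 55471 genes listed in the deposited table, and all 10 were among the 14610 genes with enough reads to be tested. In CBPWT mice, deletion of p53 in the intestinal epithelium was accompanied by a 1.46-fold higher level of G6pdx, the entry enzyme of the pentose phosphate pathway, while the other 9 genes did not pass the test. That call was lost when any 1 of the 6 libraries compared was left out. In CBPAA mice, no NRF2 gene passed the test after the same deletion, and the difference between the CBP genotypes was not significant for G6pdx (adjusted p = 0.482 by edgeR).

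NRF2, the product of Nfe2l2, is a transcription factor that is held at a low level by KEAP1, an adaptor that hands it to a ubiquitin ligase. Oxidants and electrophiles modify KEAP1, NRF2 escapes degradation, enters the nucleus, pairs with a small MAF protein and recruits coactivators such as CBP to antioxidant response elements of genes for glutathione synthesis, thioredoxin reduction, quinone reduction and NADPH supply. Because NRF2 is controlled mainly at the level of the protein, its activity is usually read from the transcripts of its targets, and the intestinal epithelium, which faces dietary electrophiles and microbial products, is among the tissues where these targets are well known.

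RNA sequencing was performed on colonic crypts from 12 mice of strain C57BL/6J in 4 groups of 3, and the labels call the 3 mice of a group biological replicates. All mice carried floxed alleles of p53, including the controls. CBPWTp53-floxed mice had wild-type CBP and no Cre. CBPAAp53-floxed mice carried, in every cell of the body, the CBPAA knock-in, in which alanines take the place of a pair of serines that are phosphorylated in CBP, the protein encoded by Crebbp. CBPWTp53ΔIEC and CBPAAp53ΔIEC mice carried Villin-Cre as well, which removes p53 from epithelial cells of the small intestine and colon alike and not from other cells of the crypt preparation. The floxed controls carried no Cre, so an effect of Cre itself and of p53 loss cannot be told apart. The methods of the study name female mice of 8 weeks, and crypts were released with EDTA without sorting.

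Between 11177430 and 18029125 reads were assigned to genes in each library. Trp53, the target of the deletion, was measured at 24.6, 28.6 and 30.4 TPM (transcript abundance corrected for gene length and library size) in CBPWTp53-floxed mice and at 33.5, 30.7 and 23.3 TPM in CBPAAp53-floxed mice. It was at 5.44, 3.26 and 4.15 TPM in CBPWTp53ΔIEC mice and at 5.05, 4.66 and 6.13 TPM in CBPAAp53ΔIEC mice. Every library labelled ΔIEC was therefore below every floxed library. The CBPAA allele changes single codons and cannot be checked from gene counts.

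The epithelial identity of the preparation was plain from its markers. All 8 epithelial genes of the list used were present in all libraries, led by the keratin gene Krt8 at 4320 to 6170 TPM. Markers of stroma summed to 4.24 to 8.33 TPM over 10 genes, led by Pdgfrb, and Col1a1 was at or below 0.149 TPM. Pdgfrb was itself lower in CBPWTp53ΔIEC than in CBPWTp53-floxed mice, with a log2 fold change of -0.97, and the part of stroma in the values that follow was not tested. Those of endothelium summed to 1.10 to 1.92 TPM over 5 genes, those of lymphocytes to 6.07 to 23.7 TPM over 9 genes, and those of macrophages to 57.1 to 102 TPM over 11 genes. Most of the macrophage sum was Cd14, at 45.4 to 83.1 TPM, while the macrophage gene Adgre1 was at or below 0.0516 TPM. C1qa, another of the 11 genes, had a mean of 4.9 TPM in CBPWTp53-floxed mice and 13.3 TPM in CBPAAp53-floxed mice. Its means were 13.5 TPM in CBPWTp53ΔIEC and 12.5 TPM in CBPAAp53ΔIEC mice. The CBPWTp53-floxed mice, at 0.44 to 9.21 TPM, overlapped with each other group, and the part of macrophages in the values that follow was not tested. The 10 NRF2 genes are active in many cell types, and in bulk RNA fewer cells of a type and less RNA per cell cannot be told apart.

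Several libraries stood apart in other ways before any comparison of the NRF2 genes. Fabp6, Apoa1, Apoa4 and Sis, genes of the small intestine, summed to 3470 TPM in CBPWTp53ΔIEC replicate 1, 1440 TPM in CBPAAp53ΔIEC replicate 3, 703 TPM in CBPAAp53-floxed replicate 2 and 604 TPM in CBPAAp53ΔIEC replicate 1. They summed to 8.45 to 24.6 TPM in the other 8 libraries. The 4 libraries are called small intestine libraries below for these genes alone. Whether the transcripts came from small intestine tissue or from colonic crypts was not tested. Over the full list of 13 small intestine genes, the sums in these 4 libraries were 6350, 3530, 3130 and 1680 TPM, against 724 to 1680 TPM in the others, with the fatty acid binding protein gene Fabp2 as the most abundant member. The Paneth cell gene Lyz1 was at 2280, 789, 123 and 410 TPM in the same 4 libraries and at or below 13.7 TPM elsewhere. The full list of 7 Paneth genes summed to 18500, 8840, 3970 and 4370 TPM there, and also to 12000 TPM in CBPAAp53-floxed replicate 3, where Ang4 made up 11800 TPM. The fold changes of the NRF2 genes were computed with and without these 4 libraries, and many are given both ways. Without them CBPAAp53ΔIEC has 1 library, which is then assumed to vary like the other groups.

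A further library bears on G6pdx, which lies on the X chromosome. Xist, the RNA that silences an X chromosome in female cells, was at 0.683 TPM in CBPAAp53-floxed replicate 1 and at 65.9 to 168 TPM in the other 11 libraries, although no read of Ddx3y, Eif2s3y, Kdm5d or Uty, genes of the Y chromosome, was counted in that library. G6pdx stood at 94.2 CPM (reads scaled to library size) in this mouse, against 94.3 and 80.1 CPM in the other mice of its group.

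To show what the genes have in common before their levels, the promoter windows of the RefSeq annotation (build GRCm38.p6, from 250 bases before to 50 bases after each transcription start) were searched for TGACNNNGC, the core of the antioxidant response element, on both strands. Of the 10 genes, 8 were found in the promoter table, with 10 windows because Txnrd1 has 3, while Hmox1 and Gclc had no entry. The letters occurred in 5 windows of 5 genes. They occurred in 4071 of all 32851 windows of this length (12.4%). The stretches around the 5 matches follow, 5′ to 3′ on the strand of the gene, with the match in capitals.
Nfe2l2: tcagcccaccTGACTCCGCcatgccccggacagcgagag
Gclm: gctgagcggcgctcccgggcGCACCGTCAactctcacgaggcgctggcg
Txnrd1: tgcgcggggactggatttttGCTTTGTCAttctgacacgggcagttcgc
Srxn1: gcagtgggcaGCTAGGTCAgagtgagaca
G6pdx: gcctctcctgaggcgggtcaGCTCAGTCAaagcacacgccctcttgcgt
These sequences are chr2:75704875-75704913 (minus strand) for Nfe2l2, chr3:122245403-122245451 (plus) for Gclm, chr10:82859094-82859142 (plus) for the second start of Txnrd1, chr2:152105542-152105570 (plus) for Srxn1 and chrX:74428909-74428957 (minus) for G6pdx. Only that of Nfe2l2 reads TGACNNNGC on the strand of the gene, with its first base at position -240 from the start. The others carry it on the opposite strand, with the first base of the match at -134 in Gclm, -92 in Txnrd1, -57 in G6pdx and 29 in Srxn1. The windows of Keap1, Nqo1 and Slc7a11 and the other windows of Txnrd1 did not hold these letters. A match describes the sequence and is no evidence of binding, and its absence applies to this window alone.

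The 10 genes spanned a wide range of levels in the crypt. Nfe2l2 was the most abundant, with a mean of 186 TPM over the 12 libraries, ahead of Srxn1 at 157 TPM and Nqo1 at 113 TPM. Txnrd1, Gclc and G6pdx followed at 81.7, 81.2 and 74.1 TPM, neighbours whose libraries overlapped (68.4 to 112, 74.1 to 95.8 and 56.4 to 98.4 TPM). Keap1 and Gclm were at 38.9 and 35.3 TPM, again with overlapping libraries. Hmox1 was at 4.04 TPM and Slc7a11 at 0.5 TPM, and both were counted from few reads, 23 to 91 and 14 to 63 per library, so that small changes in these genes could not be detected at this depth. The inducible heme oxygenase and the cystine carrier were thus the low members of an otherwise well expressed set. The highest library exceeded the lowest by 1.29-fold for Gclc, the steadiest gene in TPM, and by 3.46-fold for Slc7a11.

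**Figure D1:**
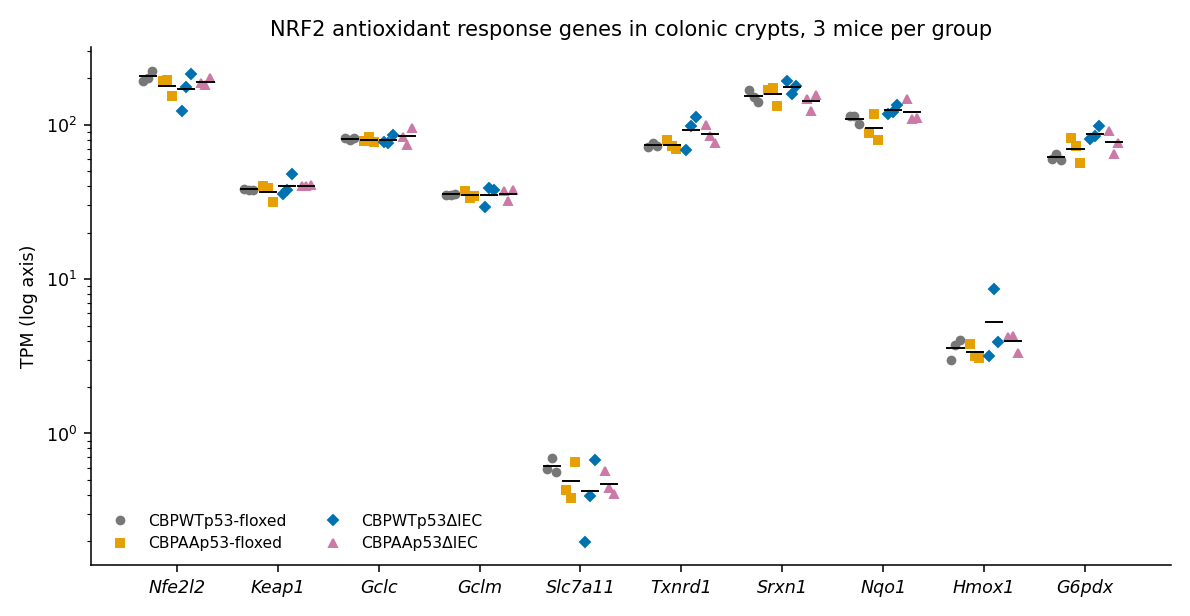
Level of each of the 10 NRF2 genes in TPM (log axis), with a point for each of the 3 mice of a group and a bar at the group mean. Nfe2l2 and Srxn1 sit at the top, Hmox1 and Slc7a11 far below the other 8 genes, and the 4 groups lie close together within each gene.

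Fold changes were tested with the quasi-likelihood test of edgeR on the counts of all genes in all 12 libraries, with Benjamini-Hochberg adjustment over the 14610 genes tested. A gene was called where its adjusted p was under 0.05 and its log2 fold change above 0.5 in size. By this rule 460 genes (3.15%) were called in CBPWTp53ΔIEC against CBPWTp53-floxed mice, 335 higher and 125 lower, and G6pdx was the only NRF2 gene among them. In the other pairwise comparisons no NRF2 gene was called, and few genes of any kind were. None (0%) was called in CBPAAp53-floxed against CBPWTp53-floxed mice, where edgeR gave 1174 genes at an unadjusted p under 0.05 and DESeq2 called 33. In CBPAAp53ΔIEC against CBPAAp53-floxed mice 4 genes (0.0274%) were called, and in CBPAAp53ΔIEC against CBPWTp53ΔIEC mice 1 gene (0.00684%). DESeq2 called G6pdx in the same comparison as edgeR and no other NRF2 gene in any of them. Comparisons of this kind share groups, so the values that follow are set side by side for each comparison and are not independent of each other.

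**Figure D2:**
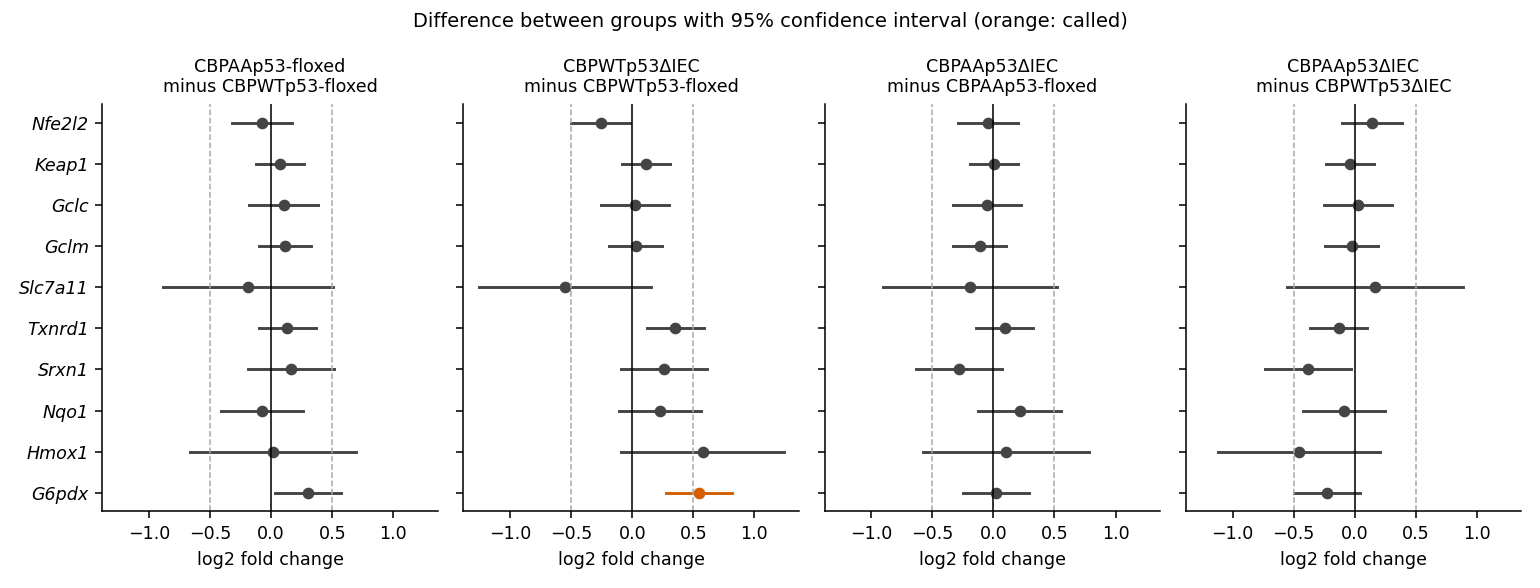
Log2 fold change of each NRF2 gene in the 4 pairwise comparisons, with its 95% confidence interval and dashed lines at the cutoff of 0.5 in either direction. Orange marks the called gene. G6pdx in CBPWTp53ΔIEC against CBPWTp53-floxed mice, at 0.55, is the only call, and the intervals of Hmox1 and Slc7a11 are the widest.

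Among the regulators, Nfe2l2 was measured at 286.4, 296.0 and 314.3 CPM in CBPWTp53-floxed mice, 272.3, 311.3 and 268.2 CPM in CBPAAp53-floxed mice, 217.7, 252.3 and 278.3 CPM in CBPWTp53ΔIEC mice and 266.9, 260.3 and 299.8 CPM in CBPAAp53ΔIEC mice. In CPM, though not in TPM, all 3 CBPWTp53ΔIEC mice were below all 3 CBPWTp53-floxed mice, and the other groups overlapped with both. The lowest was the library with the highest sum of small intestine genes. The log2 fold change between these groups was -0.26 ± 0.11 (SE), with an adjusted p of 0.208 by edgeR, and it was -0.18 with the 4 small intestine libraries left out (adjusted p = 0.168). Keap1, the inhibitor of NRF2, lay between 65.9 and 78.2 CPM in all 12 mice, and on this scale its groups overlapped in every comparison. In TPM the CBPAAp53ΔIEC mice, at 40.2 to 40.6 TPM, lay just above the CBPAAp53-floxed mice, at 31.6 to 40.1 TPM. Its log2 fold change in CBPWTp53ΔIEC against CBPWTp53-floxed mice was 0.11 (adjusted p = 0.516). Keap1 was among the steadiest genes of the table, with a standard deviation of log2 CPM within groups at percentile 4.19 of the genes tested. In the annotation its exons overlap the antisense gene Gm16754, for which 1 to 4 reads were counted per library.

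The genes of glutathione synthesis did not pass the test in any comparison. Gclc, the catalytic subunit of glutamate cysteine ligase, was at 81.4, 79.7 and 82.4 TPM in CBPWTp53-floxed mice and at 77.7, 76.3 and 85.5 TPM in CBPWTp53ΔIEC mice. The groups overlapped on this scale and in CPM, where the small intestine library of CBPWTp53ΔIEC, at 137.7 CPM, was the highest of the 6. Gclc had a log2 fold change of 0.02, with a 95% confidence interval from -0.26 to 0.30 (adjusted p = 0.943). Gclm, the modifier subunit of the same enzyme, was at 87.5, 85.7 and 83.0 CPM and at 86.9, 92.8 and 81.1 CPM in these groups, a log2 fold change of 0.03 (-0.19 to 0.24, adjusted p = 0.91). For both subunits the interval excluded a change as large as the cutoff of 0.5. Reads of Gclm could be shared with the overlapping pseudogene Gm6061 and the transcript Gm17494, which held 19 to 49 and 1 to 8 reads per library. Slc7a11, the carrier that brings in cystine for glutathione, was at 3.23, 3.71 and 2.89 CPM in CBPWTp53-floxed mice and at 1.31, 2.09 and 3.21 CPM in CBPWTp53ΔIEC mice. Its values overlapped through a single mouse, and the log2 fold change was -0.55 ± 0.33 (SE, adjusted p = 0.356), or -0.31 without the small intestine libraries and -0.92 (adjusted p = 0.222) without CBPWTp53ΔIEC replicate 3. Leaving out the small intestine libraries in CBPAAp53ΔIEC against CBPAAp53-floxed mice moved Slc7a11 from -0.19 to -0.46. It moved Gclm from -0.11 to -0.31 and Gclc from -0.05 to -0.22, and the interaction of Gclm from -0.14 to -0.33. For Slc7a11 the interaction went from 0.36 to -0.15 and the difference between CBPAAp53ΔIEC and CBPWTp53ΔIEC mice from 0.17 to -0.19. Without CBPAAp53-floxed replicate 3, the Slc7a11 value in CBPAAp53ΔIEC against CBPAAp53-floxed mice was 0.15. No gene of the 3 was called either way.

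Of the thioredoxin genes, Txnrd1, which encodes the cytosolic thioredoxin reductase, came closest to a call. It was measured at 199, 208 and 193 CPM in CBPWTp53-floxed mice, 211, 218 and 227 CPM in CBPAAp53-floxed mice, 228, 265 and 272 CPM in CBPWTp53ΔIEC mice and 265, 225 and 210 CPM in CBPAAp53ΔIEC mice. In CPM both CBPWTp53ΔIEC and CBPAAp53-floxed mice lay wholly above CBPWTp53-floxed mice, whereas the CBPAA groups overlapped with each other. In TPM they did not, since CBPWTp53ΔIEC replicate 1, at 68.4 TPM, and CBPAAp53-floxed replicate 3, at 69.3 TPM, were below the 71.4 to 75.8 TPM of the CBPWTp53-floxed mice. The log2 fold change of Txnrd1 in CBPWTp53ΔIEC against CBPWTp53-floxed mice was 0.35 ± 0.11 (SE, unadjusted p = 0.00618, adjusted p = 0.0876 by edgeR). DESeq2 gave 0.35 with an adjusted p of 0.0203, and edgeR gave 0.42 (adjusted p = 0.00164) without the 4 small intestine libraries, values that pass the p threshold but not the fold cutoff. In CBPAAp53ΔIEC against CBPAAp53-floxed mice the log2 fold change of Txnrd1 was 0.09 (adjusted p = 0.728), and the interaction, which compares the p53 effect of CBPAA mice with that of CBPWT mice, was -0.26 (adjusted p = 0.547).

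Srxn1, sulfiredoxin, reactivates peroxiredoxins and is a strongly inducible NRF2 target in many cells. It was at 185, 166 and 147 CPM in CBPWTp53-floxed mice, 176, 206 and 173 CPM in CBPAAp53-floxed mice, 254, 170 and 172 CPM in CBPWTp53ΔIEC mice and 155, 129 and 173 CPM in CBPAAp53ΔIEC mice. The highest mouse, at 254 CPM, was the one with the highest sum of small intestine genes. The CBPAAp53ΔIEC mice lay just below the CBPAAp53-floxed mice without overlap in CPM, though not in TPM. Srxn1 had a log2 fold change of 0.26 in CBPWTp53ΔIEC against CBPWTp53-floxed mice (adjusted p = 0.389), and it was 0.04 without the small intestine libraries. In CBPAAp53ΔIEC against CBPAAp53-floxed mice it was -0.28 (adjusted p = 0.474), and with the small intestine genes as a covariate it was -0.45 with an adjusted p of 0.0124, still under the fold cutoff. The interaction for Srxn1 was -0.54 ± 0.23 (SE, unadjusted p = 0.036, adjusted p = 0.482), and -0.32 without CBPWTp53ΔIEC replicate 1. Averaged over the CBP genotypes, p53 deletion gave -0.01 for Srxn1, and -0.20 (adjusted p = 0.0802) without the small intestine libraries. The part of the small intestine genes in these values was not tested beyond leaving the libraries out and the covariate.

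**Figure D3:**
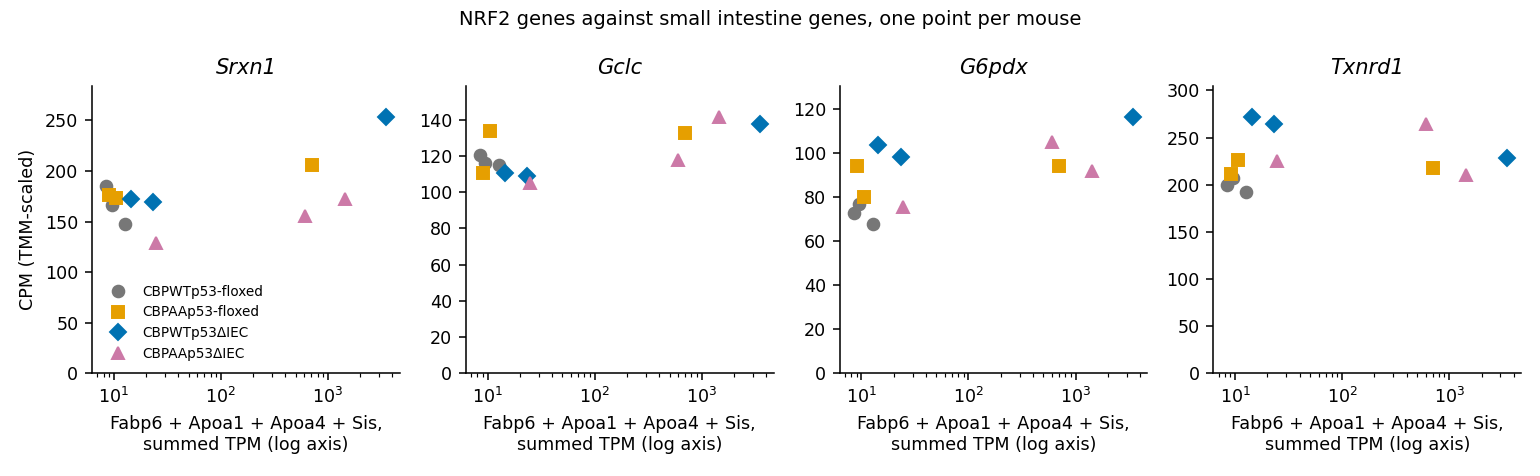
CPM of Srxn1, Gclc, G6pdx and Txnrd1 in each library against the summed TPM of Fabp6, Apoa1, Apoa4 and Sis (log axis), coloured by group. The 4 libraries at 604 to 3470 TPM stand apart from the 8 libraries at 8.45 to 24.6 TPM, and the highest Srxn1 value, 254 CPM, belongs to the library at 3470 TPM.

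Nqo1, the quinone reductase most often used as a readout of NRF2, was at 70.0, 68.0 and 58.3 CPM in CBPWTp53-floxed mice and at 86.6, 71.4 and 71.6 CPM in CBPWTp53ΔIEC mice. It was at 51.5, 77.2 and 57.3 CPM in CBPAAp53-floxed mice and at 84.8, 63.9 and 67.3 CPM in CBPAAp53ΔIEC mice. The CBPWT groups lay apart by a narrow gap and the CBPAA groups overlapped. Its log2 fold change was 0.23 (adjusted p = 0.433) in the CBPWT mice and 0.21 (adjusted p = 0.56) in the CBPAA mice, and they were 0.06 and 0.09 with the small intestine genes as a covariate. The CBPAA value was 0.08 without CBPAAp53ΔIEC replicate 1, 0.10 without CBPAAp53-floxed replicate 1 and 0.40 without CBPAAp53-floxed replicate 2. In CBPAAp53-floxed against CBPWTp53-floxed mice the value of Nqo1 was -0.08, and -0.27 without the small intestine libraries. It was 0.04 without CBPAAp53-floxed replicate 1. Hmox1, which degrades heme, was at 2.61, 5.77 and 2.34 CPM in CBPWTp53ΔIEC mice, whereas the 9 mice of the other groups lay between 2.07 and 2.82 CPM. The log2 fold change of 0.58 ± 0.31 (SE, adjusted p = 0.305) against CBPWTp53-floxed mice rested on that single mouse, replicate 2, counted at 91 reads, and it was 0.03 without it. Between CBPAAp53ΔIEC and CBPWTp53ΔIEC mice the value for Hmox1 likewise went from -0.45 to 0.09 without that mouse.

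G6pdx encodes glucose-6-phosphate dehydrogenase, which makes the NADPH that both the glutathione and the thioredoxin systems consume. It was measured at 73.0, 77.0 and 67.8 CPM in CBPWTp53-floxed mice and at 117, 98.1 and 104 CPM in CBPWTp53ΔIEC mice. It was at 94.2, 94.3 and 80.1 CPM in CBPAAp53-floxed mice and at 105, 75.4 and 91.9 CPM in CBPAAp53ΔIEC mice. In CPM the 3 CBPWTp53-floxed mice were therefore below all mice of both CBPWTp53ΔIEC and CBPAAp53-floxed groups, and the CBPAA groups overlapped. In TPM they were again below all CBPWTp53ΔIEC mice (59.4 to 64.7 against 80.4 to 98.4 TPM), but CBPAAp53-floxed replicate 3, at 56.4 TPM, was below them. As a level corrected for length, G6pdx was at 61.4 ± 2.89 TPM (SD, n = 3) in CBPWTp53-floxed mice, 70.1 ± 12.7 TPM in CBPAAp53-floxed mice, 87.6 ± 9.51 TPM in CBPWTp53ΔIEC mice and 77.3 ± 13.0 TPM in CBPAAp53ΔIEC mice.

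The log2 fold change of G6pdx in CBPWTp53ΔIEC against CBPWTp53-floxed mice was 0.55 ± 0.13 (SE), with a 95% confidence interval from 0.28 to 0.82 and an adjusted p of 0.036 by edgeR. The call was lost under several alternatives, some on the fold cutoff and most on the adjusted p. The log2 fold change was 0.47 (adjusted p = 0.00154) without the 4 small intestine libraries and 0.44 (adjusted p = 0.023) with the small intestine genes as a covariate, both past the p threshold and short of the fold cutoff. Leaving out CBPWTp53-floxed replicate 1, 2 or 3 gave adjusted p-values of 0.119, 0.127 and 0.168, and leaving out CBPWTp53ΔIEC replicate 2 or 3 gave 0.0813 and 0.116, with log2 fold changes of 0.50 to 0.60. Without CBPWTp53ΔIEC replicate 1 it was 0.47 (adjusted p = 0.0496). The exons of G6pdx overlap those of Ikbkg on the opposite strand. The strand setting of the counting was not given in the sources used here, so reads of the overlap cannot be assigned for certain. Ikbkg was counted at 559 to 1172 reads per library, with a log2 fold change of -0.26 (adjusted p = 0.244) in the same comparison.

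In CBPAA mice the picture for G6pdx was different in value but the difference did not pass the test. Between CBPAAp53ΔIEC and CBPAAp53-floxed mice the log2 fold change was 0.02, with an interval from -0.25 to 0.29 (adjusted p = 0.96), and it was -0.21 (adjusted p = 0.338) without the small intestine libraries. In CBPAAp53-floxed against CBPWTp53-floxed mice the log2 fold change was 0.30 ± 0.12 (SE, unadjusted p = 0.0302, adjusted p = 0.618), and it was 0.27 without the library that lacked Xist. The interaction was -0.53 ± 0.18 (SE, unadjusted p = 0.0101, adjusted p = 0.482 by edgeR), and -0.49 (adjusted p = 0.33) without that library. Averaged over both CBP genotypes, p53 deletion gave a log2 fold change of 0.28 ± 0.09 (SE, adjusted p = 0.0829), and 0.13 (adjusted p = 0.235) without the small intestine libraries. Between CBPAAp53ΔIEC and CBPWTp53ΔIEC mice G6pdx had a log2 fold change of -0.23 (adjusted p = 0.985), and -0.42 (adjusted p = 0.402) without those libraries.

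As a set, 8 of the 10 genes had a positive and 2 a negative log2 fold change in CBPWTp53ΔIEC against CBPWTp53-floxed mice, with a median of 0.17, where the median over all 14610 genes was 0.01. The CPM values of 4 of them (Nfe2l2, Nqo1, Txnrd1 and G6pdx) did not overlap between the groups, beside 30.8% of all genes tested. In CBPAAp53-floxed against CBPWTp53-floxed mice 7 were positive and 3 negative with a median of 0.08 (all genes 0.01), and 2 (Txnrd1 and G6pdx) did not overlap, beside 19.4% of all genes. In CBPAAp53ΔIEC against CBPAAp53-floxed mice 5 were positive and 5 negative with a median of -0.02 (all genes 0.01), and Srxn1 alone did not overlap, beside 15% of all genes. In CBPAAp53ΔIEC against CBPWTp53ΔIEC mice 3 were positive and 7 negative with a median of -0.06 (all genes -0.01), and none of the 10 was free of overlap, beside 9.26% of all genes. With 10 genes, these counts of genes free of overlap are near the shares of all genes. The list of 8 epithelial marker genes had medians of 0.20, 0.21, -0.14 and -0.17 in these 4 comparisons, in the order given. None of the 8 was called, and their part in the values of the NRF2 genes was not tested. Without the small intestine libraries, the 10 NRF2 genes had 7 positive and 3 negative values in CBPWTp53ΔIEC against CBPWTp53-floxed mice, with a median of 0.05 (all genes -0.01). CBPAAp53ΔIEC against CBPAAp53-floxed mice had 4 positive and 6 negative with a median of -0.13 (all genes 0.00), and the comparison of both ΔIEC groups, with a single CBPAAp53ΔIEC mouse, had 0 positive and 10 negative with a median of -0.19 (all genes -0.01), none of them called. On the TPM scale 2 of the 10 (Nqo1 and G6pdx) were free of overlap in CBPWTp53ΔIEC against CBPWTp53-floxed mice, and 0 in CBPAAp53-floxed against CBPWTp53-floxed mice. There was 1 (Keap1) in CBPAAp53ΔIEC against CBPAAp53-floxed mice. In CBPAAp53ΔIEC against CBPWTp53ΔIEC mice there was 1 (Srxn1, at 122 to 156 against 159 to 191 TPM). The share of all genes free of overlap in TPM was not counted. These TPM counts are therefore no result about the set.

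Over both CBP genotypes together, p53 deletion changed 511 genes (3.5%), and no NRF2 gene was among them by edgeR. At an unadjusted p under 0.05 there were 2, G6pdx and Txnrd1, where 3201 of all 14610 genes were, and their log2 fold changes were 0.28 and 0.22 (adjusted p = 0.0829 and 0.113). Over both p53 states together, CBPAA against CBPWT changed 1 gene (0.00684%), and none of the 10 had an unadjusted p under 0.05. Their log2 fold changes lay between -0.22 (Hmox1) and 0.06 (Gclc), and that of Hmox1 was 0.05 without CBPWTp53ΔIEC replicate 2. With all libraries 6 were positive and 4 negative, with a median of 0.01. Without the small intestine libraries, which leaves 1 CBPAAp53ΔIEC mouse, 0 were positive and 10 negative. The median was then -0.08 (all genes -0.01). The interaction called 1 gene (0.00684%), none of the 10, with 2 of them (G6pdx and Srxn1) at an unadjusted p under 0.05, where 1502 of all genes were. DESeq2 called no NRF2 gene in these 3 comparisons either.

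The genes that supply NADPH or work beside the 10 genes were followed through lists of the pathway. The lists were chosen with earlier results of these data known, so their counts are no test of a pathway. Of all genes tested, 460 (3.15%) were called in CBPWTp53ΔIEC against CBPWTp53-floxed mice, 335 higher and 125 lower. Among 8 further genes of NADPH supply, Taldo1 and Tkt, which encode transaldolase and transketolase of the pentose phosphate pathway, rose in CBPWTp53ΔIEC against CBPWTp53-floxed mice and none fell (2 of 8 called, median log2 fold change 0.18). Taldo1 was at 201, 182 and 176 CPM in CBPWTp53-floxed mice and at 310, 295 and 292 CPM in CBPWTp53ΔIEC mice, a log2 fold change of 0.68 (adjusted p = 0.0342). Tkt was at 197, 180 and 177 CPM and at 291, 262 and 257 CPM, a log2 fold change of 0.55 (adjusted p = 0.0279). For both genes, named because they were called, the CPM of the groups did not overlap, beside 30.8% of all genes tested. Without the small intestine libraries the values were 0.65 for Taldo1, still called, and 0.49 for Tkt, short of the cutoff. Neither was called without any 1 of the 3 CBPWTp53-floxed mice or without CBPWTp53ΔIEC replicate 2 or 3, and 1 gene of the list was called without CBPWTp53ΔIEC replicate 1. Me1, malic enzyme, had a log2 fold change of 0.50 (adjusted p = 0.287) and H6pd, the dehydrogenase of the endoplasmic reticulum, of -0.48 (adjusted p = 0.116).

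Of 16 further glutathione genes, 3 rose in CBPWTp53ΔIEC against CBPWTp53-floxed mice and none fell (median 0.17), beside 3.15% of all genes called. Gsr, glutathione reductase, was at 57.0, 69.9 and 61.3 CPM in CBPWTp53-floxed mice and at 108, 86.7 and 99.1 CPM in CBPWTp53ΔIEC mice, a log2 fold change of 0.64 (adjusted p = 0.0225). Gpx2, the glutathione peroxidase of the gut epithelium, went from 252, 257 and 201 CPM to 475, 451 and 435 CPM, a log2 fold change of 0.94 (adjusted p = 0.0265). The CPM of both genes did not overlap between the groups, beside 30.8% of all genes tested. Those of Gstp1, a glutathione transferase with a log2 fold change of 0.64 (adjusted p = 0.0487), did not overlap either. Gstp1 has the close copies Gstp2 and Gstp3, with 308 to 952 and 60 to 129 reads per library, so its reads could be split between them. Gsr, Gpx2 and Gstp1 were also called without the small intestine libraries (0.56, 0.90 and 0.69). No glutathione gene was called without any 1 of the CBPWTp53-floxed mice or without CBPWTp53ΔIEC replicate 3, and 1 was called without CBPWTp53ΔIEC replicate 2.

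Of 11 further thioredoxin and peroxiredoxin genes, 2 rose in that comparison and none fell (median 0.18), beside 3.15% of all genes called. Prdx4, the peroxiredoxin of the endoplasmic reticulum, was at 6.83, 6.84 and 6.50 CPM in CBPWTp53-floxed mice and at 12.1, 15.8 and 11.9 CPM in CBPWTp53ΔIEC mice, a log2 fold change of 0.99 (adjusted p = 0.0317). Prdx1, a cytosolic peroxiredoxin, passed narrowly at 0.54 (adjusted p = 0.04996). Of this list 0 were called without any 1 of the CBPWTp53-floxed mice or without CBPWTp53ΔIEC replicate 2 or 3, and 1 without CBPAAp53-floxed replicate 1 or 3 or CBPAAp53ΔIEC replicate 2. Txnip, which binds and inhibits thioredoxin, was the most abundant gene of the list at 765 to 1440 TPM and had a log2 fold change of -0.38 (adjusted p = 0.209).

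Among 15 tested enzymes and exporters for quinones, carbonyls and xenobiotics, none rose and Ephx1, microsomal epoxide hydrolase, fell in both CBP genotypes. Ephx1 was at 15.4, 14.6 and 14.3 CPM in CBPWTp53-floxed mice and at 13.8, 18.1 and 20.9 CPM in CBPAAp53-floxed mice. It was at 3.36, 4.31 and 5.02 CPM in CBPWTp53ΔIEC mice and at 4.60, 5.87 and 3.38 CPM in CBPAAp53ΔIEC mice. No ΔIEC mouse reached the lowest floxed mouse. The log2 fold changes of Ephx1 were -1.79 (adjusted p = 0.00896) and -1.93 (adjusted p = 0.00475), so Ephx1 went in the opposite direction to the called genes of the other antioxidant lists. It was not called in the CBPWT comparison without CBPWTp53-floxed replicate 2 or 3, nor in the CBPAA comparison without CBPAAp53ΔIEC replicate 1. The medians of this list were 0.12 in the CBPWT and 0.01 in the CBPAA comparison. No gene was called in that CBPWT comparison among 12 regulators and partners of NRF2 (median -0.15), 8 genes of heme and iron (median 0.03) and 7 other antioxidant enzymes such as superoxide dismutases and catalase (median -0.10). Crebbp, which encodes CBP, had a log2 fold change of -0.28 there (adjusted p = 0.237).

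**Figure D4:**
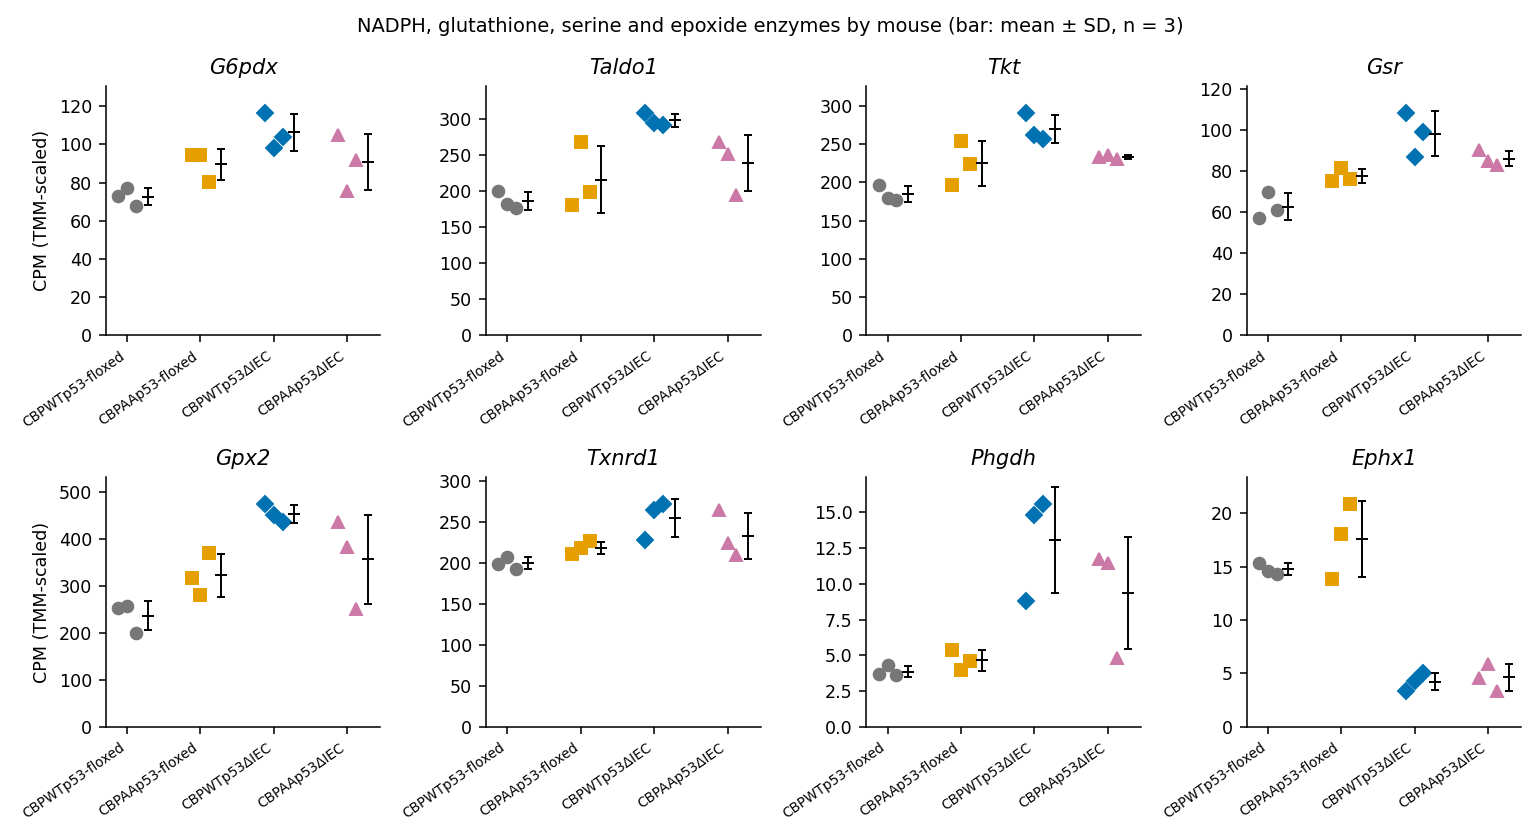
CPM of G6pdx, Taldo1, Tkt, Gsr, Gpx2, Txnrd1, Phgdh and Ephx1 in each mouse by group, with the mean and SD of 3 mice. In the first 3 panels of enzymes that make NADPH or pentose phosphates, and in Gsr and Gpx2, all CBPWTp53ΔIEC mice lie above all CBPWTp53-floxed mice. Ephx1 is lower in both ΔIEC groups. These genes were drawn because they were called, so the gaps add no support to the calls. Of all genes tested, 30.8% were free of overlap between the CBPWT groups.

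In CBPAAp53ΔIEC against CBPAAp53-floxed mice, Ephx1 was the only called gene of these antioxidant lists in the fit without a covariate, where 4 of all genes were called. With the small intestine genes as a covariate 1389 of all genes were called, and the calls of these lists in that fit are not given here. The fit without the small intestine libraries leaves a single CBPAAp53ΔIEC mouse, so its calls in these lists are not read. The values that follow use all 12 libraries. The log2 fold changes of the genes called in CBPWT mice were 0.14 for Taldo1, 0.06 for Tkt, 0.15 for Gsr, 0.14 for Gpx2, 0.14 for Gstp1, 0.16 for Prdx4 and 0.16 for Prdx1. The interaction was -0.54 for Taldo1, -0.49 for Tkt, -0.50 for Gsr, -0.80 for Gpx2, -0.50 for Gstp1, -0.83 for Prdx4 and -0.38 for Prdx1, with adjusted p-values of 0.482 to 0.516, so a difference between the CBP genotypes was not shown for any of them. Their values in the floxed mice differed as well. Gpx2, for example, was at 318, 280 and 370 CPM in CBPAAp53-floxed mice, above all CBPWTp53-floxed mice, and at 436, 383 and 251 CPM in CBPAAp53ΔIEC mice. Averaged over the CBP genotypes, Gpx2 (0.54, adjusted p = 0.0293) and Prdx4 (0.57, adjusted p = 0.0384) were called higher and Ephx1 lower (-1.86), while Gsr (0.40), Taldo1 (0.41) and Tkt (0.30) passed the p threshold but not the fold cutoff. In this average the glutathione list gave 0 calls without any 1 of 9 of the 12 libraries (all but CBPAAp53-floxed replicate 2, CBPWTp53ΔIEC replicate 1 and CBPAAp53ΔIEC replicate 3), and the thioredoxin list without any 1 of 10 of them (all but the last 2). In CBPAAp53-floxed against CBPWTp53-floxed mice and in CBPAAp53ΔIEC against CBPWTp53ΔIEC mice no gene of any of these lists was called by edgeR.

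Lists that share members or conditions with the NRF2 response were read beside it. ATF4 is a stress-responsive factor that also drives Slc7a11 and the enzymes of serine synthesis. Of 15 ATF4 targets, 2 rose in CBPWTp53ΔIEC against CBPWTp53-floxed mice and none fell (median 0.41), beside 3.15% of all genes called. Both belong to serine synthesis. Phgdh was at 3.68, 4.30 and 3.61 CPM in CBPWTp53-floxed mice and at 8.78, 14.8 and 15.6 CPM in CBPWTp53ΔIEC mice, a log2 fold change of 1.76 (adjusted p = 0.0248), and Psat1 had a log2 fold change of 1.45 (adjusted p = 0.0183). No ATF4 target was called without any 1 of the CBPWTp53-floxed mice or without CBPWTp53ΔIEC replicate 2 or 3, and 4 were called without CBPWTp53ΔIEC replicate 1. The ATF4 target Slc7a11 itself was not called. In the CBPAA comparison Phgdh (1.01, adjusted p = 0.32) and Psat1 (0.43, adjusted p = 0.432) were not called. The value of Phgdh was 1.19 with the small intestine libraries left out, which leaves 1 CBPAAp53ΔIEC mouse. Of 12 genes induced by tissue dissociation, such as Fos, edgeR called 0 in the CBPWT comparison (median 0.03, 0 at an unadjusted p under 0.05, 0 called by DESeq2) and 0 in the CBPAA comparison (median -0.23, 5 at an unadjusted p under 0.05, 1 called by DESeq2).

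Genes of proliferation were also higher in CBPWTp53ΔIEC than in CBPWTp53-floxed mice, a comparison in which 3.15% of all genes were called. Of 12, 10 rose against CBPWTp53-floxed mice (median 1.67), from Pcna, the sliding clamp of DNA polymerase, at 0.84, through Mcm2, Mcm6, Mcm5, Ccnb2, Cdk1, Rrm2, Ccnb1 and Top2a to Birc5 at 2.19, while Mki67 and Tyms were not called there and were called higher when averaged over the CBP genotypes (1.51 and 0.83). In the CBPWT comparison none was called without CBPWTp53-floxed replicate 2 or 3 or CBPWTp53ΔIEC replicate 2 or 3. There 1 was called without CBPWTp53-floxed replicate 1 and 6 without CBPAAp53-floxed replicate 1 or 3. All 12 were called there without CBPWTp53ΔIEC replicate 1 or CBPAAp53ΔIEC replicate 3. Averaged over the CBP genotypes, 3 to 12 of the 12 genes were called with each library left out in turn. Their summed level was 186 to 203 TPM in the 3 CBPWTp53-floxed mice, 260, 187 and 194 TPM in CBPAAp53-floxed mice, 295, 604 and 622 TPM in CBPWTp53ΔIEC mice and 504, 488 and 212 TPM in CBPAAp53ΔIEC mice. All CBPWTp53ΔIEC mice were above all CBPWTp53-floxed mice, while CBPAAp53ΔIEC replicate 3 lay within the range of the floxed mice. As a description over the 12 libraries, r of log2 CPM with this sum ran from -0.576 (Gclc) to 0.875 (Txnrd1) over the 10 NRF2 genes and was 0.498 for G6pdx, and as deviations from the group means it ran from -0.926 (Gclc) to 0.74 (Txnrd1) and was -0.215 for G6pdx. With the summed small intestine list, r ran from -0.654 (Slc7a11) to 0.797 (Gclc) and was 0.793 for Srxn1 and 0.547 for G6pdx. With the summed macrophage list it ran from -0.384 (Slc7a11) to 0.469 (G6pdx). As deviations from the group means, r with the macrophage list ran from -0.43 (Slc7a11) to 0.63 (G6pdx). In the CBPAA comparison edgeR called none of the 12 (median 0.91, with 9 at an unadjusted p under 0.05). That count rested on CBPAAp53ΔIEC replicate 3: without it 8 of the proliferation genes were called (median 1.23) and the calls over all genes went from 4 to 326, while the 10 NRF2 genes and the glutathione, thioredoxin and NADPH lists still gave 0 calls (the medians were -0.07 for the 10 NRF2 genes, -0.04 for the glutathione, -0.06 for the thioredoxin and 0.00 for the NADPH list). The part of proliferation in the values of G6pdx, Taldo1, Tkt, Gsr and Gpx2 was not tested further. Of 14 p53 targets, Trp53 included, 5 fell and none rose in the CBPWT comparison (Trp53, Eda2r, Phlda3, Trp53inp1 and Ccng1), and 2 fell in the CBPAA comparison (Trp53 and Eda2r). The first count was 1 or 2 when any 1 of the CBPWTp53-floxed mice, or CBPWTp53ΔIEC replicate 2 or 3, was left out, and the second was 1 without CBPAAp53-floxed replicate 3 or CBPAAp53ΔIEC replicate 1. Of 7 genes of mature colonocytes, 1 was called in the CBPWT comparison (median -0.09), Saa1, an acute phase protein, with -1.22 (adjusted p = 0.0405), and it was not called without any 1 of the CBPWTp53-floxed mice, CBPWTp53ΔIEC replicate 2 or 3, CBPAAp53-floxed replicate 3 or CBPAAp53ΔIEC replicate 1. Of 8 colon genes none was called there by edgeR (3 at an unadjusted p under 0.05, and 1 called by DESeq2), and averaged over the CBP genotypes 1 was called (median -0.08), Car1, a carbonic anhydrase, with 0.62 (adjusted p = 0.0347), a call lost when any of several single libraries was left out.

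How the 10 genes varied among themselves was described over the 12 libraries by Pearson's r of log2 CPM, which shares depth, group and cell composition between the points and is given without a test. Of the 45 pairs, 10 had r above 0.5, 2 had r below -0.5, and the median was 0.007, so the 10 transcripts did not move as a single block. The closest pairs were Txnrd1 with G6pdx (0.686), Gclc with Srxn1 (0.647), Keap1 with G6pdx (0.634) and Gclc with Gclm (0.628). Nfe2l2 and G6pdx had r = -0.571, which was -0.337 without CBPWTp53ΔIEC replicate 1 and -0.057 as deviations from the group means. Taken as deviations from the group means, the r of Txnrd1 with G6pdx was 0.113 and that of Gclc with Srxn1 was 0.813. The first pair thus went together mainly between groups and the second mainly between mice of a group. As such deviations, Gclc and Srxn1 also had r of 0.819 and 0.897 with the summed small intestine list. With the proliferation sum they had -0.926 and -0.758, and the part of either in the r of this pair was not tested.

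Among all genes tested, those with the pattern most like a member over the 12 libraries were named by the same measure. For G6pdx they were Papss2 (0.944), Myo1e (0.925) and Tpm3 (0.913). For Txnrd1 they were Sdf2l1 (0.959), Pole2 (0.957) and Rpa1 (0.948). The nearest to Nfe2l2 were Slc4a2 (0.901), Araf (0.894) and Ezh1 (0.889). Keap1 was closest to Arhgdia (0.925), Pafah1b3 (0.921) and Pdcd6 (0.919). Nearest to Nqo1 were Apool (0.922), Serf2 (0.905) and Sdhaf2 (0.905). Gclc had Cyp2j6 (0.926), Idh1 (0.925) and Pipox (0.923) as its nearest genes. Gclm was closest to Lcp1 (0.881), Retnlb (0.852) and Ang4 (0.85). Nearest to Srxn1 were Gnal (0.949), Rtf2 (0.946) and 1700007L15Rik (0.939). Hmox1 had Cyp2r1 (0.85), Hmgb1 (0.849) and Krt8-ps (0.834) as its nearest genes. Near to Slc7a11 were Gm20559 (0.876) and Tgfbr2 (0.87). No NRF2 gene was among the 3 nearest genes of another.

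The genes spread by different amounts between mice of a group. The standard deviation of log2 CPM within groups was 0.0838 for Keap1, 0.107 for Gclm, 0.115 for Txnrd1, 0.125 for Nfe2l2, 0.159 for G6pdx and 0.164 for Gclc, all under the median of all genes tested, 0.215. Nqo1 (0.214) and Srxn1 (0.223) were close to that median. Hmox1 (0.362) and Slc7a11 (0.415), counted from the fewest reads, spread the most. A change of the size seen in G6pdx would thus be harder to detect in Hmox1 or Slc7a11 than in the other 8 genes.

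All 10 genes are protein-coding in the GRCm38 annotation. G6pdx lies at chrX:74409483-74429194 (minus strand), Txnrd1 at chr10:82833951-82897712 (plus), Srxn1 at chr2:152105516-152111376 (plus) and Nfe2l2 at chr2:75675513-75704641 (minus). Keap1 lies at chr9:21229730-21239361 (minus), Gclc at chr9:77754535-77794485 (plus), Gclm at chr3:122245557-122270732 (plus) and Slc7a11 at chr3:49892526-50443614 (minus). Nqo1 lies at chr8:107388225-107403206 (minus) and Hmox1 at chr8:75093621-75100589 (plus). They are spread over chromosomes 2, 3, 8, 9, 10 and X, and the gene values are sums over the exons of these intervals.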

How the data were processed

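Per the labels, RNA was extracted with TRIzol from crypts released with EDTA, and libraries were made with a TruSeq Stranded mRNA kit. The submitters' processing notes name fastp 0.20.0, FastQC 0.11.9, HISAT2 2.1.0, SAMtools 1.9 and featureCounts of Subread 2.0.1 with build GRCm38. The strand setting was not given in the sources used here. The authors deposited a table of raw counts and TPM per gene for all 12 libraries. Its fold change and adjusted p columns, the authors' own comparisons of groups, were not used.

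Counts were tested with edgeR 4.0.16 (limma 3.58.1, R 4.3.3): filterByExpr with a minimum count of 10, TMM scaling, and a robust quasi-likelihood fit of 4 groups over all 12 libraries with 7 contrasts. Genes were called at an adjusted p below 0.05 with an absolute log2 fold change over 0.5, the fold cutoff of the study. CPM are TMM-scaled and compare a gene between mice, and TPM compare genes. Alternatives were DESeq2 1.42.0 and its size factors, other filters, only the groups compared, a replicate block, each library left out, and, chosen after the data were seen, a small intestine covariate and the 4 libraries with Apoa1 above 100 TPM left out. The covariate and block are fitted with the groups. The fit was run on counts simulated from its own means and dispersions. That simulation held no outlying libraries, so it cannot vouch for the libraries that stood apart here. Depth limited the low genes Hmox1 and Slc7a11. Read counts do not separate duplicate molecules.

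The members and all gene lists were chosen with earlier results of these data known. Beside the 10 members, the text names from each list the genes called in any comparison, those with the largest fold change in the p53 comparison averaged over both CBP genotypes (at most 4 per list), and the most abundant genes of marker lists. Small intestine, Paneth, Xist and Y chromosome genes, Krt8, Pdgfrb, Col1a1, Cd14, Adgre1 and overlapping genes were named as checks on the libraries, and Fos and Crebbp for what they stand for. Figures were drawn with matplotlib 3.10.9. Of the 30 genes nearest in pattern to a member, 1 is not reported here.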

Additional observations from a re-analysis of the deposited data

How the results depend on the processing

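The single call among the 10 NRF2 genes, G6pdx in CBPWTp53ΔIEC against CBPWTp53-floxed mice, was kept with DESeq2, DESeq2 size factors, no filter on low counts and only the groups compared. The number of NRF2 genes called was 0 with the replicate block (adjusted p of G6pdx = 0.0639), 0 with the small intestine covariate, 0 with the small intestine libraries left out, and 0 to 1 with each library left out in turn. Adjusted p of G6pdx ran from 0.00154 to 0.168 over its alternatives. In the other comparisons the count was 0 throughout. Of the fold changes of the 10 genes under alternatives, 1390 kept their side of the threshold and moved little, 41 moved by more than the spread and 9 lost the call. Of all 1440, 85 had the other sign, and none of these was G6pdx in the comparison where it was called.

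Over all genes the counts moved far more. In CBPWTp53ΔIEC against CBPWTp53-floxed mice, 460 became 865 with DESeq2, 723 with only the groups compared, 32 with the replicate block, 1128 with the covariate, 1729 without the small intestine libraries, and 1 to 906 with each library left out, with 1 without CBPWTp53-floxed replicate 3 and 906 without CBPWTp53ΔIEC replicate 1. In CBPAAp53ΔIEC against CBPAAp53-floxed mice, 4 became 69 with DESeq2, 11 with no filter, 1 with only the groups compared, 2 with the block, 1389 with the covariate and 1053 without the small intestine libraries. In CBPAAp53-floxed against CBPWTp53-floxed mice, 0 became 33 with DESeq2 and 42 without those libraries, and the interaction went from 1 to 30 and 35. Averaged over CBP genotypes, 511 became 304 with the block, 1433 with the covariate, 1692 without the small intestine libraries, and 105 to 1073 with each library left out, the lowest without CBPWTp53-floxed replicate 3 and the highest without CBPWTp53ΔIEC replicate 1. The causes were not tested. In the CBPWT comparison with the block, no glutathione, thioredoxin or NADPH gene was called, and leaving out each library gave 0 to 4, 0 to 3 and 0 to 2 genes called higher in these lists.

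Mice with the same replicate number did not deviate together: their correlations ran from -0.526 to 0.548, with 3 of 18 over 0.1, so the number is not taken as a pairing. The order of the group means was the same in log2 CPM as in TPM for 5 of the 10 genes. Of the 30 nearest genes by likeness (3 for each of the 10), 9 were shared with log2(TPM + 1) and 14 without CBPWTp53ΔIEC replicate 1. As deviations from the group means nearly all of them differed, and only Araf for Nfe2l2 and Cyp2r1 for Hmox1 recurred. No fit with sex as a term was made, since reads of the Y chromosome showed no males. Depth limited Hmox1 and Slc7a11.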
